A study of Arabidopsis thaliana with 21 samples.

Results

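The cytochromes P450 followed here are 25 genes, each read by a single probe set of an Affymetrix Arabidopsis Gene 1.0 ST array, out of 16542 genes that such single-gene probe sets name. Members were taken by symbol: CYP, a family number of 2 or 3 digits and a subfamily letter, with CYP79F1 and CYP79F2 left out. The name of the whole family promises more than the probe sets deliver. The RefSeq gene table (assembly TAIR10.1) lists 236 symbols of this form, and 21 of the 25 measured genes belong to the single subfamily CYP71B, of which another 15 genes were not measured. The other 4 are CYP78A9, CYP79A2, CYP79C2 and CYP84A4, so the values below describe CYP71B genes and a few others, not the family. CYP718, a P450 whose symbol has no subfamily letter, falls outside the rule.

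Transcripts were measured in whole rosettes of the accession Columbia-0, with 7 groups of 3 independent biological replicates and 21 arrays in all. Non-acclimated (NA) plants grew in the greenhouse, with days of 20 °C and nights of 18 °C, cold acclimated (CA) plants spent a further 3 days at 4 °C, and deacclimated (DEA) plants went back from there to the greenhouse, where they stayed for 2, 4, 6, 12 or 24 h. All plants were wild type, raised for 3 weeks in days of 8 h and for 1 week in days of 16 h, which the cold cabinet kept, and each sample pooled 10 of them. Light was 90 µmol m-2 s-1 in the cold and at least 200 in the warmth, so a change of light and a change of temperature cannot be told apart. By the study's own account the move to the warmth fell in the morning and no sample was taken in the dark, while the clock hour of each harvest was not stated, so hours in the warmth and time of day cannot be told apart.

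P450s are haem enzymes, most of them anchored in the endoplasmic reticulum, which take electrons from a reductase and insert an oxygen atom into their substrate. Plants use them for hormones, pigments, lignin, cutin and defence compounds. CYP71B is a large subfamily of Arabidopsis, much of it in gene clusters, and its best known member is PAD3 (CYP71B15), which completes the synthesis of the phytoalexin camalexin. PAD3 was not measured here, and for most measured members no role is stated below because none is sure.

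The values are log2 expression values, so a difference of 1 is a 2-fold change. A gene was called up or down at a Benjamini-Hochberg adjusted p under 0.05, over all 31329 probe sets tested in that comparison with limma, and a log2 change over 1. The arrays were scaled to a shared distribution by quantile normalization before the probe signals were combined into probe set values. In a pooled rosette fewer cells expressing a gene and less RNA per cell cannot be told apart. Over the probe sets tested the medians of the arrays still ran from 8.11 to 8.43, the highest belonging to replicate 1 of DEA 2 h and the next to it being 8.28. The spread between replicates was widest at 2 h, with a median residual SD of 0.241, against 0.132 in CA plants. Among fixed leaf markers 2 of 12 were measured, the antenna protein LHCB4.1 with group means of 11.88 to 12.21 and the Rubisco activase RCA with 12.33 to 12.65. Of the root markers 1 of 8 was measured (BGLU23, 8.68 to 10.69), and of the flower markers 0 of 8. Whether the P450 values move with BGLU23 was not tested.

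After the return to the warmth a small set of CYP71B transcripts stood higher than in CA plants, most of them at 6 h and 12 h. After 24 h no member was called different from NA plants, and of all probe sets tested only 0.0383% were called up and 0.00638% down. Against CA plants only CYP71B37 was up after 2 h. Taking the groups in order from 4 h to 24 h, 3, 5, 5 and 1 members were up, and 1 was up in NA plants. As shares of the 25 members the 6 counts are 4%, 12%, 20%, 20%, 4% and 4%. In the same order 2.88%, 3.22%, 4.17%, 4.41%, 4.15% and 4.26% of all probe sets tested were called up. The only member called down was CYP78A9, at 6 h, while 1.6%, 2.6%, 3.56%, 4.76%, 4.37% and 3.64% of all probe sets were called down in the same 6 comparisons. The member shares thus stood above the background for increases from 4 h to 12 h, and close to it in the other 3 comparisons. No test of the list was made, and 1 gene more or fewer moves its share by 4 percentage points.

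**Figure D1:**
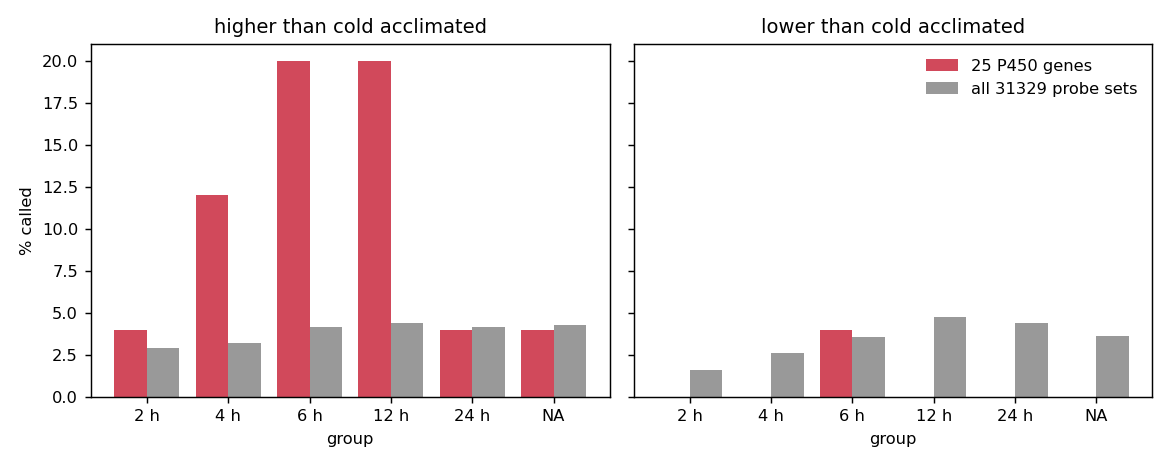
Share of the 25 P450 genes (red) and of all 31329 probe sets (grey) called higher (left) or lower (right) than in cold acclimated plants, in percent, for 5 deacclimation times and non-acclimated plants (NA). The red bars reach 20% at 6 h and 12 h on the left, and a single red bar, for 1 gene at 6 h, stands on the right.

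At any of the 5 times 8 members were called up (CYP71B5, CYP71B19, CYP71B20, CYP71B22, CYP71B24, CYP71B26, CYP71B28 and CYP71B37) and 1 was called down, against 7.91% and 7.6% of all probe sets. None was called in both directions. The median change of the members was 0.12, 0.07, 0.20, 0.28 and 0.17 on the log2 scale from 2 h to 24 h and 0.15 in NA plants, beside 0.06, 0.01, 0.03, 0.01, 0.00 and 0.00 over all probe sets. Over all members the median change was thus small, and the called increases lay in single genes. For the 14 members outside the dimmest 25% of the probe sets tested the median was larger from 4 h to 12 h. In the same order it was -0.06, 0.37, 0.34, 0.54, 0.17 and 0.12. The median of all probe sets outside the dimmest 25% was not computed, so these values have no matching background. The arrays of the 2 groups did not overlap for 6, 10, 8, 12, 6 and 5 members in these comparisons, and for 33.1%, 42.8%, 46%, 50.5%, 44.2% and 46.1% of all probe sets, so that by this measure the members lay below the background or close to it.

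**Figure D2:**
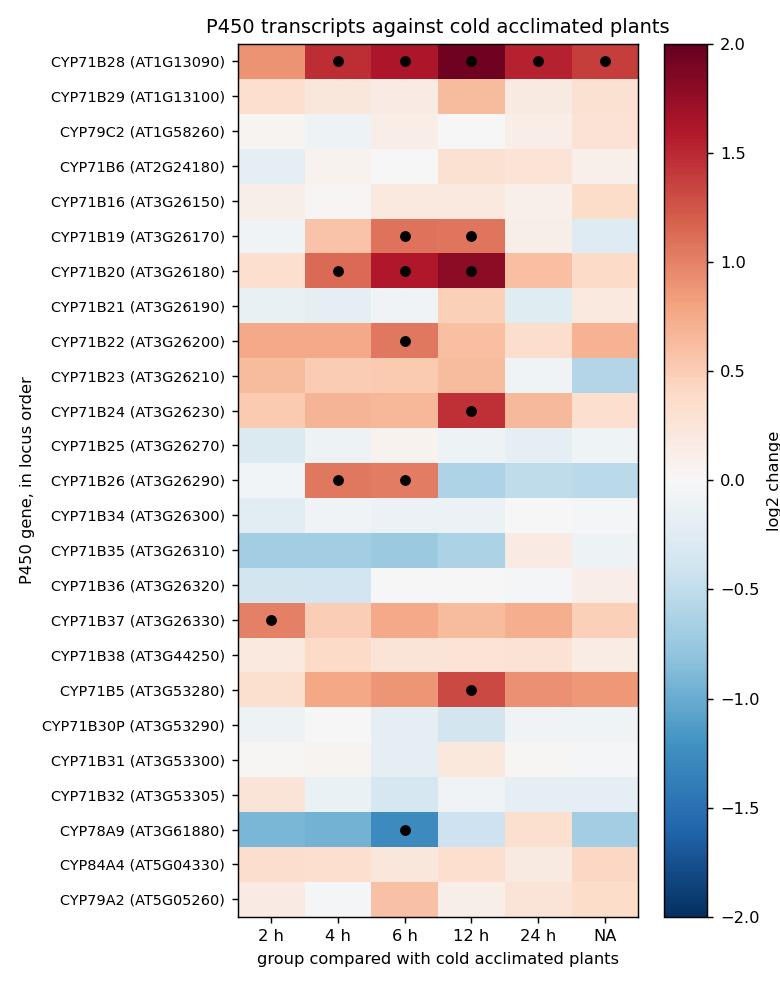
Log2 change of each P450 gene (rows, in locus order) against cold acclimated plants, after 2 h to 24 h of deacclimation and in non-acclimated plants (NA); red is higher, blue lower, and a dot marks a called change. CYP71B28 is dotted in 5 of 6 columns, CYP71B20 in 3, and the rows of CYP71B35 and CYP78A9 are the deepest blue between 2 h and 6 h, with fainter blue in others.

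CYP71B28 (AT1G13090) was the member with the steadiest difference between cold and warm plants. In CA plants its 3 arrays read 7.63, 7.38 and 7.48. After 2 h they read 8.30, 8.76 and 8.13, then 9.10, 8.73 and 9.10 at 4 h, followed by 9.44, 8.96 and 8.95 at 6 h. Those of 12 h stood at 9.36, 9.46 and 9.51, the 24 h arrays at 9.02, 9.01 and 9.09, and those of NA plants at 9.05, 8.72 and 8.90. Every array outside the CA group was above all CA arrays. The rise over CA was 0.90 ± 0.16 (SE) at 2 h, short of the fold threshold with an adjusted p of 0.000943 in limma. From 4 h on it was called each time, with 1.48 (adjusted p = 7.54e-06), then 1.62 (adjusted p = 2e-06), 1.94 at 12 h (adjusted p = 2.01e-07) and 1.54 at the last time (adjusted p = 2.51e-06). It was also called in NA plants, by 1.39 (adjusted p = 8.77e-06), which makes it the only member called between the 2 steady states. At 12 h it stood 0.55 above NA plants (adjusted p = 0.0282), below the fold threshold, and at 24 h 0.14 (adjusted p = 0.89). That margin at 12 h lost its adjusted p when any of 5 single arrays was left out, with values of 0.46 to 0.63.

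CYP71B5 (AT3G53280) followed a like course at a smaller size. Its arrays read 7.85, 8.15 and 8.25 in CA plants, 8.74, 8.24 and 8.22 after 2 h, then 9.01, 8.77 and 8.77 (4 h) and 9.21, 8.69 and 9.01 (6 h). The 12 h arrays read 9.21, 9.38 and 9.60, the 24 h arrays 8.94, 9.05 and 8.99, and the NA arrays 8.94, 9.15 and 8.76. From 4 h on no array overlapped the CA group. The change passed both thresholds only at 12 h (1.32 ± 0.17, adjusted p = 1.26e-05 in limma), a 2.49-fold rise. In the groups at 4, 6 and 24 h and in NA plants it was 0.77, 0.89, 0.92 and 0.87, with adjusted p between 0.00043 and 0.00265, all under the fold threshold. Without replicate 2 of DEA 6 h the change at 6 h was 1.03 and was called.

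**Figure D3:**
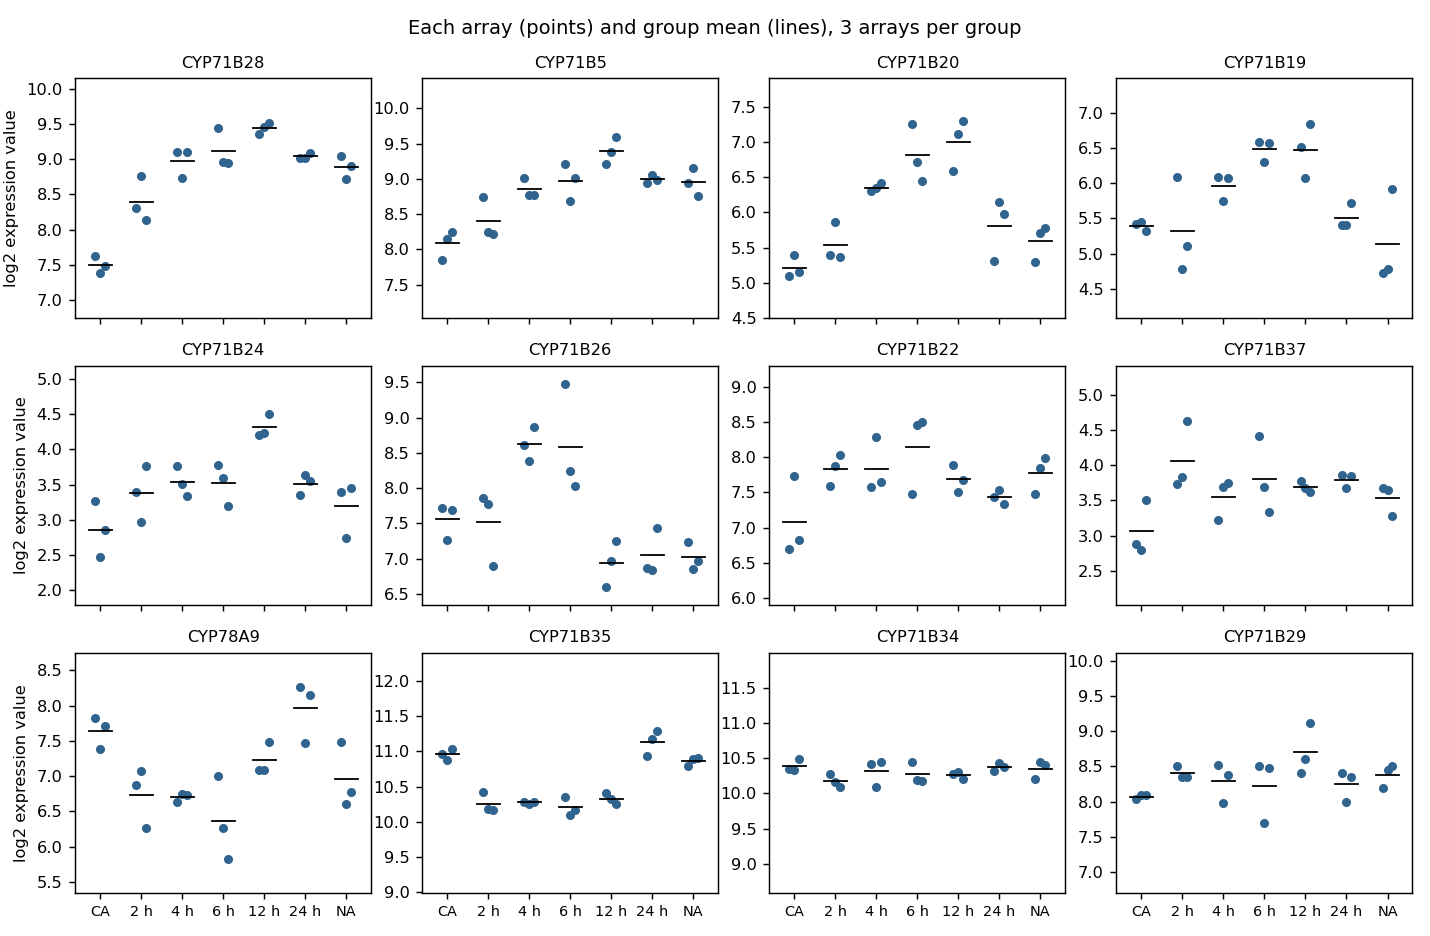
Log2 expression value of 12 P450 genes on each array (points) and the group mean (line), from cold acclimated plants (CA) through 2 h to 24 h of deacclimation to non-acclimated plants (NA), 3 arrays per group; every panel has its own log2 axis, all of the same span. CYP71B28 and CYP71B5 step up from CA and stay up, CYP71B19, CYP71B20 and CYP71B24 peak at 6 h or 12 h, CYP71B26 peaks at 4 h and 6 h, and CYP71B35 is low from 2 h to 12 h.

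A second group of members stood above both end states for part of the course. At 24 h none of them was called different from NA plants, beside 0.0383% of all probe sets called up and 0.00638% down. Called above both CA and NA plants were 1 member at 4 h (CYP71B26), 3 at 6 h (CYP71B19, CYP71B20 and CYP71B26) and 3 at 12 h (CYP71B19, CYP71B20 and CYP71B24), with 0.658%, 1.17% and 0.763% of all probe sets doing so at these times. At 2 h it was 0 members, against 0.472% of all probe sets, and at 24 h 0 members, against 0.0128%. No member was called below both at any time, and from 2 h to 24 h 0.377%, 0.728%, 1.11%, 0.891% and 0.00319% of all probe sets were. Against NA plants alone 1, 1, 3 and 4 members were called up in the groups from 2 h to 12 h, beside 2.27%, 2.2%, 3% and 1.95% of all probe sets. None was called down, beside 2.22%, 2.88%, 3.57% and 2.65%.

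CYP71B20 (AT3G26180) had the largest rise over CA plants in this group, while over NA plants that of CYP71B26 was larger. Its CA arrays read 5.10, 5.39 and 5.15, its 2 h arrays 5.40, 5.86 and 5.37, its 4 h arrays 6.30, 6.34 and 6.41, and its 6 h arrays 7.26, 6.72 and 6.44. The 12 h arrays read 6.59, 7.11 and 7.30, the 24 h arrays 5.31, 6.15 and 5.97, and the NA arrays 5.30, 5.71 and 5.78. The 9 arrays from 4 h to 12 h lie above all CA, NA and 24 h arrays. It was called up over CA at 4 h (1.14 ± 0.24, adjusted p = 0.00232), 6 h (1.60, adjusted p = 9.79e-05) and 12 h (1.79, adjusted p = 2.46e-05) in limma, and at 24 h it stood 0.60 above CA (adjusted p = 0.0705). Over NA plants it was called at 6 h (1.21, adjusted p = 0.00155) and 12 h (1.41, adjusted p = 0.000709). From 12 h to 24 h it fell by 1.19 (adjusted p = 0.00439), the only member called in that step, where 1.02% of all probe sets were called down and 1.59% up. Without replicate 1 of DEA 6 h the rise over NA at 6 h was 0.98, and without replicate 1 of DEA 24 h the last step was -0.94, both short of the fold threshold; that step was also not called (adjusted p = 0.0778) when the arrays of these 2 groups were fitted alone.

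CYP71B19 (AT3G26170), the neighbour of CYP71B20 with no annotated gene between them, was called with it at 6 h and 12 h but not at 4 h, where it stood 0.57 above CA plants (adjusted p = 0.223 in limma). Its arrays read 5.42, 5.45 and 5.32 in CA plants, 6.08, 4.78 and 5.11 after 2 h, then 6.08, 5.74 and 6.07 (4 h) and 6.58, 6.30 and 6.57 (6 h). The 12 h arrays read 6.51, 6.07 and 6.84, the 24 h arrays 5.41, 5.40 and 5.72, and the NA arrays 4.73, 4.78 and 5.91. Replicate 1 at 2 h and replicate 3 of the NA plants stood well above the other arrays of their groups. The rise over CA was 1.09 ± 0.31 at 6 h (adjusted p = 0.0142 in limma) and 1.07 at 12 h (adjusted p = 0.013), and the rise over NA 1.34 (adjusted p = 0.0047) and 1.33 (adjusted p = 0.00714). The change from 12 h to 24 h was -0.96 (adjusted p = 0.0704) and was not called. Without replicate 3 of DEA 12 h the rise over CA at 12 h was 0.89 (adjusted p = 0.0678), and with the 2 groups alone in the fit the 12 h rise over NA was not called (adjusted p = 0.066). Without replicate 3 of the NA plants the rise over NA at 4 h, otherwise 0.82, was 1.21 and was called.

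CYP71B24 (AT3G26230) was called at a single time. Its arrays read 3.26, 2.47 and 2.85 in CA plants, 3.39, 2.97 and 3.77 after 2 h, then 3.77, 3.51 and 3.34 (4 h) and 3.78, 3.59 and 3.19 (6 h). Those of 12 h read 4.21, 4.23 and 4.50, the 24 h arrays 3.35, 3.63 and 3.55, and the NA arrays 3.39, 2.74 and 3.45. The 3 arrays at 12 h lie above all other arrays of the gene. The change at 12 h was 1.46 ± 0.24 over CA (adjusted p = 0.000154 in limma) and 1.12 over NA (adjusted p = 0.00377), the latter 0.89 without replicate 2 of the NA plants and then short of the fold threshold. From 12 h to 24 h the change was -0.80 (adjusted p = 0.0482), under the fold threshold, and at 24 h the gene still stood 0.65 above CA (adjusted p = 0.0455). Both adjusted p lay above the threshold over the whole table (0.0668 and 0.0549). That of the step from 12 h to 24 h did so too when any array of those 2 groups was left out. That at 24 h over CA did so under cyclic loess and with the 2 groups alone in the fit. It was also lost without any single 24 h array, or without replicate 2 or 3 of the CA plants. This probe set is among the dimmest 25% of those tested, whose mean over all arrays lies under 4.98.

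CYP71B26 (AT3G26290) was called over CA plants at 4 h and 6 h, and its rise had already gone at 12 h. Its CA arrays read 7.72, 7.26 and 7.69, its 2 h arrays 7.86, 7.78 and 6.90, its 4 h arrays 8.61, 8.38 and 8.87, and its 6 h arrays 9.47, 8.24 and 8.03. By 12 h they read 6.60, 6.97 and 7.25, the 24 h arrays 6.87, 6.84 and 7.43, and the NA arrays 7.23, 6.85 and 6.97. The 6 arrays at 4 h and 6 h are the highest of the gene, with 1 of them, replicate 1 at 6 h, far above the rest. Over CA the rise was 1.06 ± 0.32 at 4 h (adjusted p = 0.0254 in limma) and 1.02 at 6 h (adjusted p = 0.0259), and over NA it was 1.61 (adjusted p = 0.00227) and 1.57 (adjusted p = 0.00216). Between 6 h and 12 h it fell by 1.64 (adjusted p = 0.0191), a comparison chosen after the values had been seen, in which it was the only member called and 0.316% of all probe sets were called down, with 0.201% up. At 12 h it stood 0.62 below CA (adjusted p = 0.174).

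The calls of CYP71B26 over CA were easily lost. At 4 h the call was lost without replicate 2 of the CA plants (0.92), replicate 1 of DEA 4 h (1.07, adjusted p = 0.0613) or replicate 3 of DEA 4 h (0.94). At 6 h it was lost without replicate 2 of the CA plants (0.88) or replicate 1 of DEA 6 h (0.58), under cyclic loess (0.95) and with the 2 groups alone in the fit (adjusted p = 0.0993). The rises over NA at both times kept their calls whichever array was left out, at 1.48 to 1.72 and 1.12 to 1.84. The fall from 6 h to 12 h was not called without replicate 1 (-1.47, adjusted p = 0.0886) or replicate 2 (-1.65, adjusted p = 0.0624) of DEA 12 h, nor with the 2 groups alone in the fit (adjusted p = 0.172), and ranged from -1.91 to -1.19 over all arrays left out.

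CYP71B22, CYP71B37 and CYP71B23 gave calls that were lost under several alternatives. CYP71B22 (AT3G26200) read 6.69, 7.73 and 6.83 in CA plants and 7.48, 8.46 and 8.50 at 6 h, so that the groups overlap, with a change of 1.06 ± 0.28 (adjusted p = 0.00969 in limma). It lost the call without replicate 1 (0.87) or 3 (0.94) of the CA plants and without replicate 2 (0.91) or 3 (0.89) of DEA 6 h, under cyclic loess (0.99) and with the 2 groups alone in the fit (adjusted p = 0.0865). Without replicate 2 of the CA plants, its high array, the change was 1.40 at 6 h, and those at 2 h, 4 h and in NA plants (1.07, 1.07 and 1.01) were called as well.

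CYP71B37 (AT3G26330), another of the dimmest 25%, read 2.88, 2.79 and 3.51 in CA plants and 3.73, 3.83 and 4.63 at 2 h, a change of 1.00 ± 0.27 (adjusted p = 0.0147 in limma) that was lost without replicate 3 of DEA 2 h (0.72) or without replicate 1 (0.91) or 2 (0.86) of the CA plants. It was lost too under cyclic loess (0.90) and with the 2 groups alone (adjusted p = 0.0769). Its changes at the later times were 0.49 to 0.75, none called. CYP71B23 (AT3G26210) was called only over NA plants, at 2 h (1.21 ± 0.39, adjusted p = 0.0342) and 12 h (1.20, adjusted p = 0.0435). Its NA arrays read 8.37, 6.91 and 7.29, its 2 h arrays 9.48, 8.22 and 8.50 and its 12 h arrays 8.31, 8.65 and 9.22, and both pairs of groups overlap because replicate 1 of the NA plants is high. Without that array the rises at 4 h and 6 h, otherwise 1.09 and 1.11, were 1.51 and 1.53 and were called. The call at 2 h was lost without replicate 1 of DEA 2 h (0.84) or replicate 2 (0.90) or 3 (1.10) of the NA plants. That at 12 h was lost without replicate 2 (1.24) or 3 (0.96) of DEA 12 h or replicate 2 (0.90) or 3 (1.09) of the NA plants, and over the whole table (adjusted p = 0.0572). Neither was called with the 2 groups alone in the fit (adjusted p = 0.154 and 0.118).

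CYP78A9 (AT3G61880) was the member that fell. Genes of the CYP78A subfamily promote organ growth, and CYP78A9 is known for its part in the growth of fruits and seeds. Its arrays read 7.83, 7.39 and 7.71 in CA plants, 6.88, 7.07 and 6.26 after 2 h, then 6.64, 6.75 and 6.73 (4 h) and 7.0, 6.27 and 5.82 (6 h). The 12 h arrays read 7.09, 7.09 and 7.49, the 24 h arrays 8.27, 7.47 and 8.15, and the NA arrays 7.48, 6.60 and 6.78. All 9 arrays from 2 h to 6 h lie below the CA arrays, and the lowest and highest groups of the gene are those at 6 h and 24 h. At 6 h it fell by 1.28 against CA (SE 0.30, adjusted p = 0.00352 in limma), and the change was -0.91 at 2 h (adjusted p = 0.041) and -0.94 at 4 h (adjusted p = 0.0298), under the fold threshold. Without replicate 2 of DEA 2 h the change at 2 h was -1.08, and without replicate 2 of the CA plants that at 4 h was -1.07, both then called. The adjusted p at 2 h and 4 h was above the threshold when other single arrays were left out, as at 2 h without replicate 3 of DEA 2 h (-0.67, adjusted p = 0.177) and at 4 h without replicate 1 of the CA plants (-0.85, adjusted p = 0.10).

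CYP71B35 (AT3G26310) fell by less than the fold threshold but with the smallest spread among replicates of all 25 members. Its arrays read 10.97, 10.88 and 11.04 in CA plants, 10.43, 10.18 and 10.17 after 2 h, then 10.29, 10.26 and 10.28 (4 h) and 10.36, 10.10 and 10.17 (6 h). At 12 h the arrays read 10.41, 10.32 and 10.26, the 24 h arrays 10.93, 11.18 and 11.29, and the NA arrays 10.79, 10.89 and 10.91. The 12 arrays from 2 h to 12 h all lie below the 9 others. Against CA the change was -0.70, -0.69, -0.75 and -0.63 from 2 h to 12 h (SE 0.10 each, adjusted p between 4.92e-05 and 0.000218 in limma), a fall of 1.55 to 1.68 times, and against NA it was -0.60, -0.59, -0.65 and -0.53. From 12 h to 24 h it rose by 0.80 (adjusted p = 8.69e-05). By the adjusted p alone it was the only member below both end states at each of these 4 times, where 1.61%, 2.36%, 3.46% and 3.86% of all probe sets were. Leaving out any array kept these adjusted p under the threshold; with the arrays of DEA 2 h and NA plants alone in the fit it was 0.0514.

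The comparison of DEA 24 h with NA plants asks how far the P450 transcripts had returned after a day. No member was called in either direction by limma, 2 had an unadjusted p under 0.05, and over all probe sets 0.0383% were called up and 0.00638% down. The 2 members were CYP71B35, which stood 0.27 higher at 24 h (adjusted p = 0.451), and CYP78A9, which stood 1.01 higher (adjusted p = 0.274) with arrays that overlap. CYP71B28 was 0.14, CYP71B5 0.05, CYP71B20 0.22 and CYP71B26 0.03 above NA plants. With 3 arrays per group a remaining difference near the 2-fold mark could be missed where the replicates spread as widely as for CYP78A9.

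Of the 25 members, 19 are on chromosome 3, 3 on chromosome 1, 2 on chromosome 5 and 1 on chromosome 2, by their locus names. A run of measured CYP71B genes on chromosome 3, from CYP71B16 (AT3G26150) to CYP71B37, holds 13 of the 25 members. It holds 6 of the 9 members called against CA plants, all 6 called up, as 7.91% of all probe sets were at any of the 5 times. Among these 6, CYP71B22, CYP71B26 and CYP71B37 lost calls over CA under several alternatives. Within the run the genes did not move as a block. At 6 h CYP71B20 rose by 1.60 and CYP71B22 by 1.06, while CYP71B21 (AT3G26190), which lies between them, changed by -0.07 (adjusted p = 0.865 in limma). The mean of CYP71B21 over all arrays was 5.02, just above the 4.98 that bounds the dimmest 25% of probe sets. For this gene a weak signal and a lack of change cannot be told apart. At the other end CYP71B34 (AT3G26300) changed by -0.11 and CYP71B36 (AT3G26320) by 0.00 at 6 h, on either side of CYP71B35 with -0.75.

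**Figure D4:**
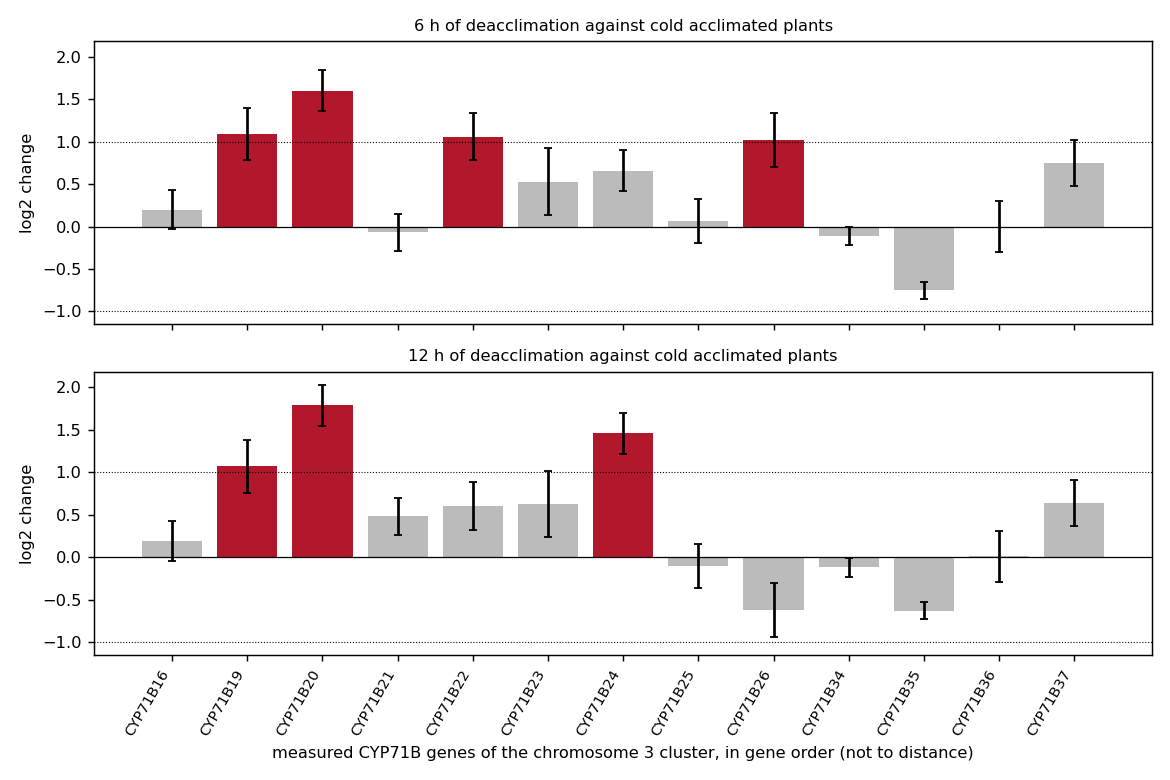
Log2 change against cold acclimated plants at 6 h (top) and 12 h (bottom) of the 13 measured CYP71B genes of the chromosome 3 run, in gene order and not to distance; bars show the change, whiskers its standard error, red bars the called genes and dotted lines the fold threshold. Called and uncalled genes are interspersed along the run, and CYP71B26 is up at 6 h and below 0 at 12 h.

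Over all members 9 pairs were neighbours with no annotated gene between them. Only CYP71B19 and CYP71B20 were called alike, at 6 h and 12 h. The widest gap was between CYP71B5, with 1.32 at 12 h, and its neighbour CYP71B30P (AT3G53290), a pseudogene by its name but protein-coding in the RefSeq table, with -0.36. Next came CYP71B28 with 1.62 and CYP71B29 (AT1G13100) with 0.16 at 6 h, and CYP71B37 with 1.00 and CYP71B36 with -0.36 at 2 h. The means of CYP71B30P (3.41) and CYP71B37 (3.64) over all arrays lie under the 4.98 that bounds the dimmest probe sets. For CYP71B30P a weak signal and a lack of change cannot be told apart, so its gap to CYP71B5 does not show divergent regulation. CYP71B28 (8.77) and CYP71B29 (8.33) both lie above that bound. The differences between neighbours were not tested, and the probes were not examined for matches to near-identical CYP71B copies, so that a signal shared between close relatives cannot be told apart from a joint change.

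In the lists of P450 genes by role, 6 of 96 listed genes were measured, and 1 of them, CYP78A9, was called. No member came from the lists for brassinosteroids and sterols (0 of 14), gibberellins (0 of 6), cytokinins (0 of 2), abscisic acid (0 of 4), jasmonates (0 of 6), strigolactones (0 of 2), fatty acids and cutin (0 of 16) or carotenoids (0 of 3), so on these pathways the measured genes say nothing. The list for glucosinolates, camalexin and indoles had 3 of 16, that for phenylpropanoids 1 of 8, that for terpenes 1 of 13 and that for the CYP78A genes 1 of 6.

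CYP71B6 (AT2G24180), which converts indole-3-acetonitrile to indole-3-carboxaldehyde, had one of the smaller spreads between replicates, with a pooled SD of 0.12, and group means that differ by at most 0.49. Its arrays read 9.71, 9.59 and 9.59 in CA plants and 9.92, 9.88 and 10.01 at 12 h, where it stood 0.31 ± 0.11 higher (adjusted p = 0.0376 in limma). That adjusted p rose above the threshold without any one of 5 of these 6 arrays, with changes of 0.27 to 0.35 over the arrays left out. CYP79A2 (AT5G05260), which makes phenylacetaldoxime on the way to benzyl glucosinolate, and CYP79C2 (AT1G58260) changed by -0.02 to 0.58 and by -0.10 to 0.29 against CA plants. CYP84A4 (AT5G04330), an enzyme of arabidopyrone synthesis, read 4.48, 4.31 and 4.54 in CA plants and 4.64, 5.06 and 4.88 in NA plants, a difference of 0.42 (adjusted p = 0.0572). CYP71B31 (AT3G53300), which oxidises linalool in flowers, had group means between 2.92 and 3.32. These last 4 genes lie in the dimmest 25% of probe sets.

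In all 16 members were called in no comparison with CA plants, and their changes ran from -0.75 to 0.64. Of these, 9 lie in the dimmest 25%, against 2 of the 9 called members. Over all probe sets 7.91% were called up and 7.6% down against CA plants at any of the 5 deacclimation times. These shares leave out the comparison of NA with CA plants. By the adjusted p alone 12 of the 25 members passed in at least 1 of the 6 comparisons with CA plants, a share close to the 50.6% of all probe sets that did. Among the uncalled members CYP71B35, CYP71B6 and CYP71B29 had an adjusted p under 0.05 in at least 1 of the 6 comparisons, the last with 0.64 at 12 h (adjusted p = 0.0303), which was 0.43 without replicate 3 of DEA 12 h and lost its adjusted p also without any one of the 3 CA arrays, at 0.62 to 0.65. The other 13 had none. CYP71B34 was the flattest, with group means that differ by at most 0.21. By the range of its group means CYP71B28 varied most (1.94, against a pooled SD of 0.20), followed by CYP71B20 (1.79, SD 0.31), CYP71B26 (1.68, SD 0.43) and CYP78A9 (1.60, SD 0.39).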

How the data were processed

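Transcript levels had been measured on 21 arrays of pooled rosettes. The authors deposited log2 expression values, 1 per probe set and array, made by RMA in the program RobiNA (background correction, quantile normalization, summary by probe set), of which no version was found in the sources used here. They were used as deposited. The first 7079 probe sets of the table, numbered in steps of 2 and without an entry in the platform's gene table, were set apart, leaving 31329.

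One linear model with 7 groups was fitted to all arrays with limma 3.58.1 in R 4.3.3 (lmFit and eBayes, 14 residual and 2.69 prior degrees of freedom), and p-values were adjusted by Benjamini-Hochberg within each comparison. The code of the fit was run on simulated data with planted changes. That run does not show what share of real changes of the size called here was found. All 25 members had 1 probe set each, and no filter on low values was applied. Array intensity behind the values was not used here, so precision is set by 3 arrays per group.

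The members and lists were chosen with earlier results of these data known. By rule the text names up to 5 increases and 5 decreases per comparison with CA plants, called and without overlap, called genes of the role lists, and the neighbours with the widest gaps or alike calls; CYP71B22, CYP71B23, CYP71B35 and the other uncalled genes were chosen after their values were seen, as was the comparison of 12 h with 6 h. Alternatives were cyclic loess, the whole table, leaving out the dimmest 25% of probe sets, fitting 2 groups alone, the replicate number as a block, eBayes with trend and robust, and leaving out each array.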

Additional observations from a re-analysis of the deposited data

Results flagged for a closer look

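For CYP71B20 the change against CA plants differed between 2 times: at 24 h it was lower than at 12 h, by -1.19 on the log2 scale (adjusted p = 0.00439 in limma, lower in 3 of 3 arrays than every 12 h array). For CYP71B26 the change at 12 h was lower than that at 6 h, by -1.64 (adjusted p = 0.0191, all 3 arrays lower than every 6 h array), in a comparison chosen after the values had been seen. Both genes belong to a subfamily of related genes, and whether their probes also read relatives was not tested. Single arrays could not be marked as outlying, since with 3 arrays per group no group was large enough.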

How the results depend on the processing

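No called change of a member, and none with an adjusted p under 0.05 at a smaller fold, reversed. The counts of members called up or down against CA plants, and between 24 h and NA plants, kept within 1.5 times of their values under the whole table, the trend and robust setting and the replicate block. Under cyclic loess, 0 members were up at 2 h, 1 was down at 2 h (CYP78A9, -1.03) and 3 were up at 6 h. With the arrays of 2 groups alone, the counts of increases were 0 (2 h) and 3 (6 h), and without the dimmest 25% of probe sets 0 were up at 2 h. Leaving out 1 array at a time gave 0 to 1 up at 2 h, 2 to 3 at 4 h, 4 to 5 at 6 h, 4 to 5 at 12 h, 1 at 24 h and 1 to 2 in NA plants, and 0 to 1 down at 2 h and 4 h, 1 at 6 h and 0 elsewhere. Of the values of called members, 153 kept and 12 lost their call under the other settings, and 143 kept and 25 lost it with an array left out. For the changes with an adjusted p under 0.05 at a smaller fold these numbers were 138 and 24, and 101 and 67. Whether arrays of the same replicate number came from the same experiment was not stated, and a low correlation cannot settle it. The replicate number was therefore not treated as a pairing in the main fit and served as a block only in an alternative. Deviations from the group means were correlated between arrays of the same number. The values were 0.03 to 0.15 in DEA 2 h against CA and -0.08 to 0.25 in DEA 24 h against NA. In DEA 12 h against DEA 6 h they were 0.18 to 0.24. Every pair was over 0.1 in 3 of the 13 comparisons (6 h with CA, NA with CA, and 12 h with 6 h), where the block changed no call, though the uncalled change of CYP71B37 at 6 h (0.75) went from an adjusted p of 0.0458 to 0.0546. With the replicate block the counts of members called against CA plants were 1, 3, 5, 5, 1 and 1 up from 2 h to NA and 1 down at 6 h, and CYP71B23 was called also over NA at 4 h (1.09) and 6 h (1.11). Choosing the dimmer probe set of a gene was not run, since each member has 1. Precision is limited by 3 arrays per group, most of all for the 11 members in the dimmest 25%.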

Other observations

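CYP718, a P450 outside the naming rule, stood 1.01 above NA plants at 6 h (SE 0.27, adjusted p = 0.0126 in limma) and 0.73 above CA plants (adjusted p = 0.0554); it was chosen after its values were seen. Of the 9 listed genes that pass electrons to P450s, 1 was measured, the reductase ATR3, whose changes against CA plants were 0.10 to 0.32 with no adjusted p under 0.0938.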
